A study of Mus musculus with 2 samples.

Results

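The tricarboxylic acid (TCA) cycle and pyruvate dehydrogenase genes described here are 29 of the 15631 annotated genes with reads in these data. They were chosen by gene name, and every row of both transcript tables that carries one of the 29 names was summed per gene and per transcript model. All 29 genes had reads in both libraries. Long-read RNA sequencing reads each cDNA molecule from end to end, so that a read carries its whole chain of exons. The tissue was gastrocnemius, a calf muscle rich in fast fibres, taken at an age of 10 days from male B6CASTF1/J mice, F1 hybrids of a C57BL/6 and a CAST parent. There were 2 libraries of 1 group, replicate 1 and replicate 2, made from 2 µg of total RNA each, with no treatment, transgene or second age. The labels give each library its own biosample and its own animal number, but the same donor identifier, and nothing more says how the animals are related. The tests between the libraries set a difference against the counting error of the reads alone, so their p-values do not measure a spread between animals.

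Pyruvate from glycolysis enters the mitochondrial matrix, where the pyruvate dehydrogenase complex turns it into acetyl-CoA. Citrate synthase joins acetyl-CoA to oxaloacetate, and the cycle then oxidises citrate stepwise back to oxaloacetate, which yields NADH, FADH2 and GTP or ATP for the cell. Kinases and phosphatases switch the complex off and on, the malate-aspartate shuttle carries reducing equivalents from the cytosol into the matrix, and anaplerotic enzymes refill the cycle's intermediates.

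Replicate 1 held 1145490 mouse reads and replicate 2 held 941841. Levels are given as CPM, reads per 1000000 mouse reads, with the mean ± SD over both libraries. A read stands for 1 transcript whatever its length, so CPM was not divided by length unless "per kb" is written. The limit for a gene with 0 reads was the level of 3 reads, 2.62 CPM for replicate 1 and 3.19 CPM for replicate 2. Intervals are 95% Clopper-Pearson intervals, and intervals and limits cover counting error only. How often the intervals of the libraries part in other sets of genes was not measured, so intervals that do not overlap are a description. The tissue label was checked against marker genes: 5 muscle fibre markers summed to 226700 and 232136 CPM, and 5 adipocyte markers to 26.2 and 32.9 CPM. Of the muscle fibre markers, Acta1, Ckm and Mylpf were higher in replicate 2, and Atp2a1 and Des in replicate 1. Of the adipocyte markers, Ucp1 had 0 reads in both libraries, and Cidea had 11 reads in replicate 1 and 6 in replicate 2. Of the heart muscle markers, Nppa had 0 reads in both libraries and Myh6 had 6 reads in replicate 1 and 0 in replicate 2. Fibroblast and matrix markers (4 of 4 listed) came to 18610 CPM in the first library and 10927 CPM in the other. Red cell markers (3 of 3 listed) summed to 378 and 785 CPM. Genes differ between the libraries with transcript length, as given with the comparison of the libraries. In whole muscle, fewer cells of a type and less RNA per cell cannot be told apart.

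The 29 genes together took 1.05% and 1.28% of the mouse reads of replicate 1 and replicate 2, or 10463 and 12789 CPM (11626 ± 1645, SD, n = 2). Of the 29 genes, 9 lay above 500 CPM, 13 between 100 and 500 CPM and 7 under 100 CPM. Their median was 353 CPM against 8.42 CPM over all annotated genes with reads. Mdh2, the mitochondrial malate dehydrogenase (chr5:135778480-135790398, plus strand, mm10), was the highest at 1409 ± 280.5 CPM and ranked 51 of all genes by mean CPM. Me2, a mitochondrial malic enzyme, was the lowest at 9.92 ± 2.02 CPM. The order from high to low was Mdh2, Idh3a, Sucla2, Cs, Pdk2, Pdha1, Dlat, Idh3b, Ogdh, Pdk4, Fh1, Mdh1, Pdhb, Idh2, Suclg1, Dld, Idh3g, Dlst, Got1, Pdhx, Got2, Me1, Suclg2, Pdp1, Pdk1, Idh1, Aco1, Pcx and Me2. Of the 28 pairs of neighbours in this order, 3 were further apart than their spread: Got1 over Pdhx, Got2 over Me1, and Pdp1 over Pdk1. The remaining neighbours overlapped. The plot of CPM by enzyme step gives each library's value.

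**Figure D1:**
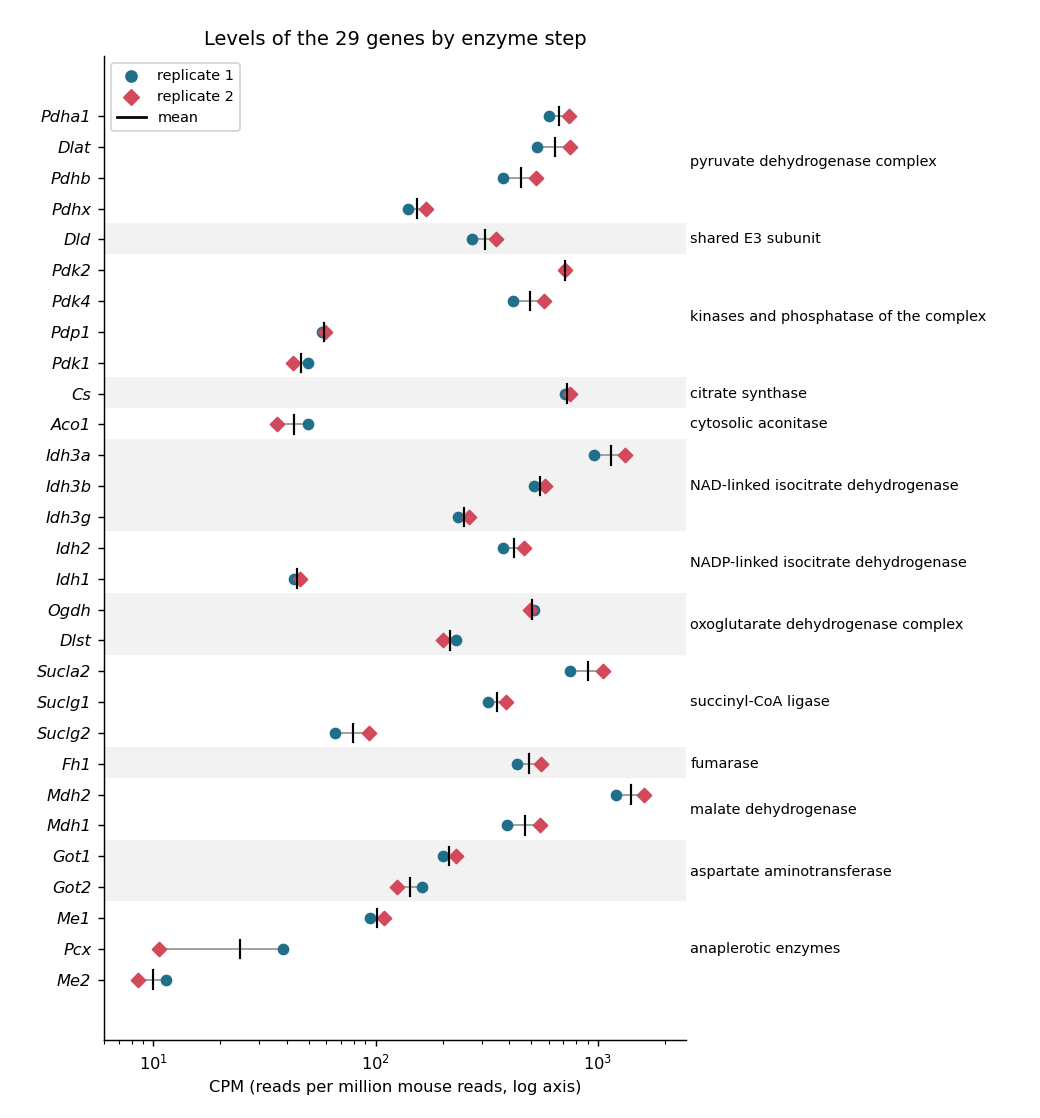
CPM of the 29 genes in replicate 1 (circles) and replicate 2 (diamonds) on a log axis, grouped by enzyme step, with a black bar at the mean. The levels run from 9.92 CPM for Me2 to 1409 CPM for Mdh2, and Pcx has the widest gap between its 2 points, 38.4 and 10.6 CPM.

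Among the subunits of the pyruvate dehydrogenase complex, the E1 alpha subunit Pdha1, which carries the sites that the kinases phosphorylate, had 603 CPM in replicate 1 and 739 CPM in replicate 2. Dlat, the E2 acetyltransferase of the core, had 533 and 746 CPM. Pdhb, the E1 beta subunit, had 375 and 528 CPM. Each of these was higher in replicate 2. Dld, the E3 dihydrolipoamide dehydrogenase that the oxoglutarate dehydrogenase complex also uses, had 271 and 347 CPM. Pdhx, the protein that binds E3 to the core, was the lowest of the subunits at 139.7 and 168 CPM. As shares of the reads of the 5 subunit genes, Pdha1 held 30.3 ± 1.52%, Dlat 28.6 ± 1.26%, Pdhb 20.2 ± 0.952%, Dld 13.9 ± 0.244% and Pdhx 6.95 ± 0.446%. The intervals of replicate 1 and replicate 2 overlapped for each of the 5 subunits.

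Of the kinases that switch the complex off, Pdk2 was the most abundant by reads, at 709.7 CPM in replicate 1 and 713 CPM in replicate 2. Pdk4, the kinase known to rise with fasting and fat oxidation, had 415 and 570.2 CPM, higher in replicate 2. Pdk1, a target of the hypoxia-inducible factor, had 49.8 and 42.5 CPM. Pdk2 therefore held 60.4% (57.8 to 63.1) of the reads of these 3 kinases in replicate 1 and 53.8% (51.0 to 56.6) in replicate 2. Pdk4 held 35.3% (32.8 to 37.9) and 43.0% (40.2 to 45.8). For Pdk2 and Pdk4 the 2 intervals did not overlap. These genes held nearly all reads of the set, so their shares are not separate results. Per kb of the main transcript, Pdk2 had 317 CPM, Pdk4 141 CPM and Pdk1 8.89 CPM, the same order. Pdp1, the phosphatase that switches the complex back on, had 57.6 and 59.5 CPM in the 2 libraries.

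At the entry of the cycle, Cs, citrate synthase, had 709 CPM in replicate 1 and 749.6 CPM in replicate 2. Aco1, the cytosolic aconitase that also acts as an iron-sensing RNA-binding protein, had 49.8 and 36.1 CPM. For the NAD-linked isocitrate dehydrogenase of the cycle, the catalytic subunit Idh3a (chr9:54586334-54604661, plus strand) had 963 and 1318 CPM. The other two subunits, Idh3b and Idh3g, had 515 and 581 CPM, and 235 and 262 CPM. Idh3a held 56.2% (54.0 to 58.4) of the reads of the 3 subunit genes in replicate 1 and 61.0% (58.8 to 63.1) in replicate 2, with intervals that did not overlap. Idh3b held 28.5 ± 2.26% and Idh3g 12.9 ± 1.11%. Counted in annotated transcripts alone, Idh3b held 2.09% and Idh3g 0.0426%, since most of their reads fall in unannotated models, as described with the transcript structure. Per kb, Idh3b and Idh3a were close, at 451 and 442 CPM, and Idh3g had 188 CPM. The main models listed measured 2580 nt for Idh3a, 1214 nt for Idh3b and 1323 nt for Idh3g. The Idh3b model is listed from chr2:130284434, inside the annotated start of Idh3b-201 at chr2:130284547 (1616 nt in all). A start as in Idh3b-201 would lengthen this model and lower its level per kb. The order of Idh3b and Idh3a per kb is therefore not settled, whereas by reads Idh3a was higher.

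Of the NADP-linked isocitrate dehydrogenases, the mitochondrial Idh2 had 375 and 463 CPM, and the cytosolic Idh1 had 42.8 and 45.7 CPM. Idh2 held 89.8% (86.7 to 92.3) of their joint reads in replicate 1 and 91.0% (88.1 to 93.4) in replicate 2. Ogdh, the E1 of the oxoglutarate dehydrogenase complex, had 516 and 493 CPM, and Dlst, its E2, had 229.6 and 202 CPM. Neither passed the test between the libraries that is described after the levels. Of the reads of Ogdh, Dlst and Dld, Dld held 26.6% (24.1 to 29.3) in replicate 1, against 33.3% (30.4 to 36.4) in the other library, without overlap of the intervals.

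Succinyl-CoA ligase pairs the alpha subunit Suclg1 with one of the beta subunits, Sucla2 for ATP or Suclg2 for GTP. Sucla2 had 751 and 1057.5 CPM, Suclg2 had 65.5 and 93.4 CPM, and Suclg1 had 319 and 386 CPM. Sucla2 held 92.0% (90.0 to 93.6) of the reads of the beta subunits in replicate 1 and 91.9% (90.1 to 93.4) in replicate 2. Per kb it had 406 CPM against 23.6 CPM for Suclg2. Fh1, fumarase, had 430.4 and 552 CPM. Mdh2 had 1211 and 1607 CPM, and its cytosolic counterpart Mdh1 had 391 and 547 CPM. Mdh2 held 75.6% (73.6 to 77.5) and 74.6% (72.7 to 76.5) of the reads of this pair.

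The aminotransferases of the malate-aspartate shuttle were nearer to each other. Got1, the cytosolic enzyme, had 199.9 and 229 CPM, and Got2, the mitochondrial enzyme, had 162 and 124 CPM. Got1 held 55.2% (50.3 to 60.0) of their reads in replicate 1 and 64.9% (59.5 to 70.0) in replicate 2. Of the anaplerotic enzymes, the cytosolic malic enzyme Me1 had 94.3 and 109 CPM and the mitochondrial Me2 had 11.3 and 8.49 CPM, from 13 and 8 reads. Pcx, pyruvate carboxylase, which makes oxaloacetate from pyruvate and is known to be high in liver and fat, had 38.4 and 10.6 CPM, from 44 and 10 reads.

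**Figure D2:**
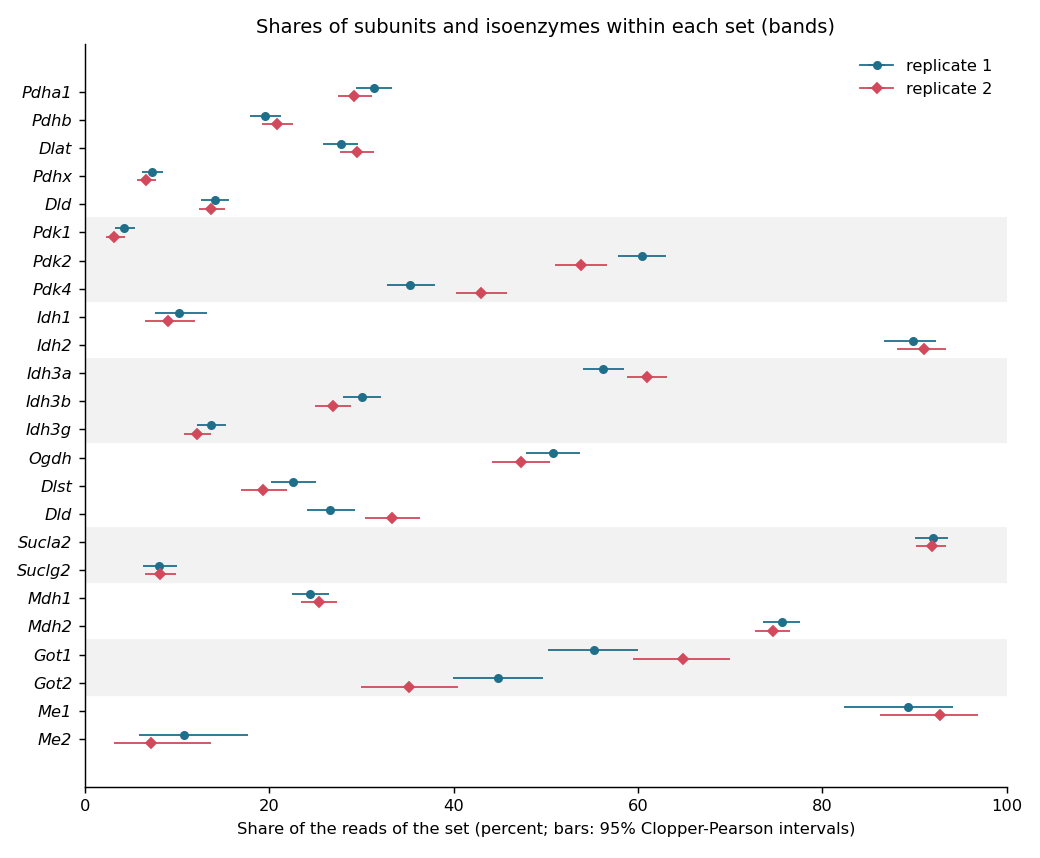
Share of reads, in percent, that each gene held within its set of subunits or isoenzymes (bands), in replicate 1 (circles) and replicate 2 (diamonds) with 95% Clopper-Pearson intervals. Idh2, Sucla2 and Me1 held about 90% of their pairs in both libraries. The intervals of the libraries were apart for Pdk2, Pdk4, Idh3a and, in the oxoglutarate dehydrogenase set, Dld. How often they part in other sets of genes was not measured.

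Each gene's split of reads between the libraries was set against the split of all mouse reads (exact binomial test, two-sided, Benjamini-Hochberg adjustment over 7516 genes). It compares these 2 libraries, not conditions. A gene was called where it differed 2-fold or more with an adjusted p under 0.05. By this rule 1 of the 29 genes was called, against 2.75% of all genes tested. The called gene was Pcx (chr19:4510472-4621752, plus strand), higher in replicate 1 by 1.86 on the log2 scale, a 3.62-fold difference with an adjusted p of 0.00140 by the exact test. Its main transcript measured 4148 nt. Adipocyte markers (4 of 5 listed in each library, Ucp1 at 0) summed to 26.2 and 32.9 CPM, and of the matrix markers Col1a1 (7947 and 4216 CPM) and Col3a1 (10116 and 6082 CPM) were higher in replicate 1, as Pcx was. Dcn (512 and 611 CPM) was higher in replicate 2, with an adjusted p of 0.0331 by the exact test, and Pdgfra (34.9 and 18.0 CPM) had an adjusted p of 0.154. The part of either list in the Pcx difference was not tested. Of all genes tested, 1.92% were called higher in replicate 1 and 0.838% higher in replicate 2, where 0 of the 29 were. At any fold, 11 of the 29 genes had an adjusted p under 0.05 and were higher in replicate 2, against 4.64% of all genes tested. These were Mdh2, Idh3a, Sucla2, Pdha1, Dlat, Pdk4, Fh1, Mdh1, Pdhb, Idh2 and Dld, and their replicate 2 levels exceeded replicate 1 by 1.23-fold to 1.41-fold. Pcx was the 1 gene of the 29 that passed in the other direction, against 4.47% of all genes. Deep genes pass more often at any fold: of the 2666 genes with 100 or more reads, 11.1% passed higher in replicate 2 and 8.44% higher in replicate 1, and of the 24 of the 29 genes at that depth 11 and 0 did.

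By direction alone, 22 of the 29 genes were higher in replicate 2, with a median log2 ratio of 0.21 against -0.01 over all genes tested. Among genes with 100 or more reads the median was 0.06, and it moved with transcript length. It was 0.28 for genes under 1500 nt, 0.09 from 1500 to 2500 nt, -0.02 from 2500 to 3500 nt and -0.21 above 3500 nt. The 29 genes in the same classes had medians of 0.17 (3 genes), 0.29 (8 genes), 0.28 (12 genes) and -0.15 (6 genes). Unlike the class medians, these take in members with fewer than 100 reads, so the 2 sets are not matched in depth. Above 3500 nt, the members under 100 reads were Pcx at -1.86, Aco1 at -0.46 and Pdk1 at -0.23. Those with 100 or more reads were Dlat at 0.48, Pdp1 at 0.05 and Ogdh at -0.07. With the expected share of replicate 1 set per bin of transcript length (1000 nt wide, the last from 4000 nt, at the median of genes with 100 or more reads), 9 of the 29 genes passed higher in replicate 2 at any fold, against 2.79% of all genes, and 1 passed higher in replicate 1, against 3.73%. These 2 shares are over all 7516 genes tested, whatever their depth. Deep genes pass more often, and the shares among genes with 100 or more reads were not computed for this setting. The length class, the matrix markers and the version of the pipeline document that the labels cite all differ between the same 2 libraries, so their parts in these differences cannot be told apart.

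**Figure D3:**
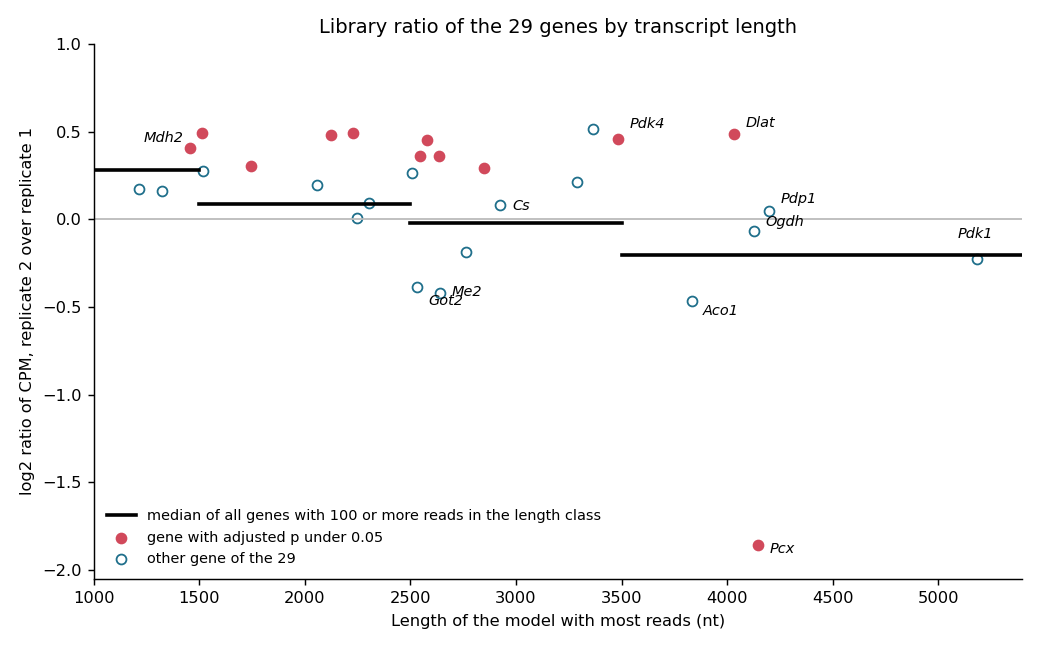
Log2 ratio of CPM (replicate 2 over replicate 1) of each of the 29 genes against the length in nt of its main transcript, filled where the adjusted p was under 0.05, with black lines at the medians of all genes with 100 or more reads per length class. Pcx lies at -1.86, and Dlat and Pdk4, 4035 and 3484 nt long, lie above the median of their length class.

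The other genes of the pathway, listed by name, numbered 37 symbols, of which 35 had reads here. Of these, 31 gene entries had 20 or more reads over both libraries and were tested. By the same exact test 0 were called at 2-fold, while 6 had an adjusted p under 0.05 at any fold, all 6 higher in replicate 2. Over all genes tested these shares were 2.75% and, higher in replicate 2, 4.64%, or 11.1% among genes with 100 or more reads. Ldha, the lactate dehydrogenase subunit that predominates in fast muscle, led with 7710 ± 931 CPM, above each of the 29 genes. Its heart-type counterpart Ldhb had 128 ± 31.9 CPM. The succinate dehydrogenase subunits had 997 CPM for Sdha, 764 CPM for Sdhb, 151 CPM for Sdhc and 472 CPM for Sdhd. The shuttle carriers Slc25a11 and Slc25a12 had 504 and 395 CPM. Mpc1 and Mpc2, the mitochondrial pyruvate carrier, had 202 and 128 CPM, and Glud1, Clybl and Me3 had 149, 143 and 126 CPM. Of the relatives of Pdk2, Pdp1 and Ogdh, Pdk3 had 6.98 and 17.0 CPM, Pdp2 had 4 reads and 0 reads, and Ogdhl had 1 read and 0 reads, the last below the limit of 3 reads in both libraries.

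Transcript structure was read from the exon chains. Of the reads of the 29 genes, 85.0 ± 1.55% matched a GENCODE M21 transcript, against 74.3 ± 3.01% over all annotated genes. Incomplete chains made up 4.88 ± 1.04%, unannotated combinations of annotated splice sites 5.52 ± 0.249%, chains with an unannotated splice site 3.90 ± 0.455% and genomic reads 0.649 ± 0.198%. In 27 of the 29 genes the model with most reads was an annotated transcript, and in 23 genes the leading model held 80% or more of the reads. Mdh2-201 held 96.5% and 96.9% of Mdh2 reads, Pdha1-201 held 93.9% and 94.3% of Pdha1 reads, and Idh3a-205 held 91.9% and 92.1% of Idh3a reads. The exceptions were Idh3b, with 4.75% and 3.29% of reads in annotated transcripts, and Idh3g, with 0% and 0.405%.

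**Figure D4:**
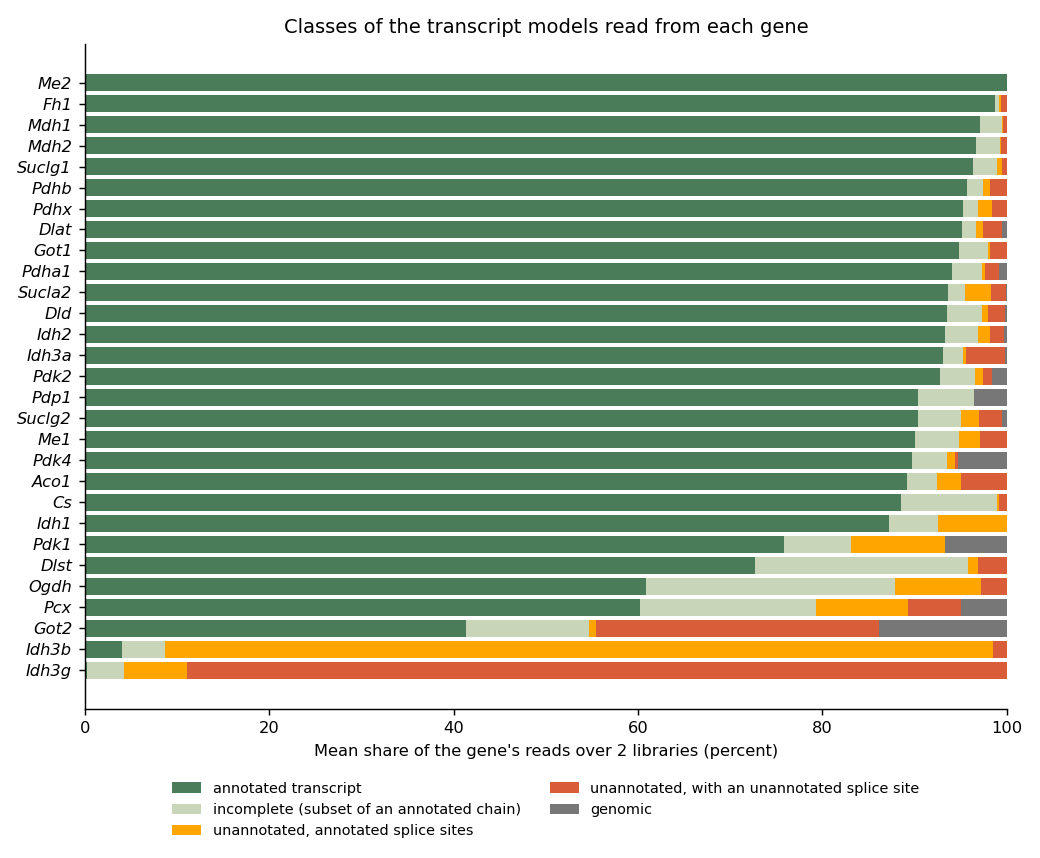
Mean share of each gene's reads over the 2 libraries, in percent, by class of transcript model, ordered by the share of annotated transcripts. Idh3b and Idh3g stand at the bottom with nearly all reads in unannotated spliced models, and Ogdh and Dlst carry the widest incomplete parts among genes above 100 CPM.

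None of 30 transcript models tested in 27 of the genes was called as differing in share between the libraries. The test was Fisher's exact test with Benjamini-Hochberg adjustment, and 0.419% of all models tested were called. The lowest adjusted p was 0.494, and 2 of the 30 had an unadjusted p under 0.05. The share of all models under that unadjusted limit is not given here, and 0.419% is not its counterpart. The widest shift was that of Pdk1-201, with 48 of 57 reads (84.2%) in replicate 1 and 27 of 40 (67.5%) in replicate 2. Its adjusted p by the same test was 0.827. Nor was either of the 2 variable internal exons called. These were a 142-nt exon of Pdk1 held in 50 of 51 and 30 of 33 spanning reads, and a 35-nt exon of Pdp1 held in 3 of 58 and 4 of 50. Of these exons 0 had an unadjusted p under 0.05 by Fisher's exact test, and 0.176% of all exons tested were called. Of 263 annotated internal exons of these genes that could be measured, 256 were held in over 95% of spanning reads as a mean over the libraries, 2 in 5% to 95% (those of Pdk1 and Pdp1) and 5 in under 5%. Pdp1 was read mainly as Pdp1-203 (66.7% and 73.2%), with Pdp1-206 at 16.7% and 8.93%.

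At Idh3b (chr2:130279309-130284547, minus strand), 542 of the 583 reads that span it in replicate 1, and 517 of 541 in replicate 2, carried a last intron of 825 nt that M21 does not hold (chr2:130279438-130280262). These were shares of 93.0% (90.6 to 94.9) and 95.6% (93.5 to 97.1). The annotated last intron of 536 nt, which ends 289 nt earlier in the direction of transcription, was in 5.49% (3.78 to 7.66) and 3.33% (1.98 to 5.21). Both introns begin at the same base, and only their ends differ. The 289 nt that most reads leave out are the last part of the 825-nt intron, not an intron of their own. They end with AG, the usual end of an intron. The coding ends of both forms are shown because they give the protein different C-terminal codons, with the stop codon in capitals:
Idh3b-201 (chr2:130279640-130279726): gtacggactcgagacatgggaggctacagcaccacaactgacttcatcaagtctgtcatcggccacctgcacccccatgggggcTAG
Idh3b, form of most reads (chr2:130279363-130279437): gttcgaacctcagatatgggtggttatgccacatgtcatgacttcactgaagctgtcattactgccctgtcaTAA
The frame ran through both last exons. It held 384 codons before the stop in Idh3b-201, with 28 of them in the last exon, and 380 codons in the form of most reads, with 24 in the last exon. Over the first 60 nt of the last exons, 37 nt were identical.

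At Idh3g (chrX:73778963-73786897, minus strand), the annotated Idh3g-201 places a 12-nt exon between a 42-nt exon and the next. Spanning reads numbered 261 and 240, and 0 of them held that exon, which by counting error alone allows shares of up to 1.15% and 1.25%. As given below, most of the few annotated exons of 15 nt or less were in 0 reads, so 0 reads do not bound the share of this exon. In 94.6% (91.2 to 97.0) and 95.4% (91.9 to 97.7) of reads the 42-nt exon was instead 46 nt long, with 4 further bases of the intron. An annotated intron that leaves out both was in 3.83% and 3.33% of reads, and the main model with it, of 10 and 8 reads, is itself an unannotated chain. The 3 junctions are shown because they differ in frame, with the added bases in capitals:
Idh3g-201 (capitals at chrX:73782298-73782309): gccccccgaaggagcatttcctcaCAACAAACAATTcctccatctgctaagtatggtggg
Idh3g, form of most reads (capitals at chrX:73782671-73782674): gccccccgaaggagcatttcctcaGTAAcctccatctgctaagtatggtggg
Idh3g, form without either: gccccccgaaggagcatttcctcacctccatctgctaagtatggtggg
Read as listed, the form of most reads met a stop after 46 codons, 5 codons past the junction, whereas Idh3g-201 held 393 codons and the form without either 389. Over all genes, of 5 annotated internal exons of 15 nt or less in genes with 1 coding transcript, 4 were in 0 reads, while 72 of 76 exons of 16 to 30 nt and 1007 of 1007 of 31 to 60 nt were in most reads. The deposited tables give the models, and the reads behind them were not examined.

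**Figure D5:**
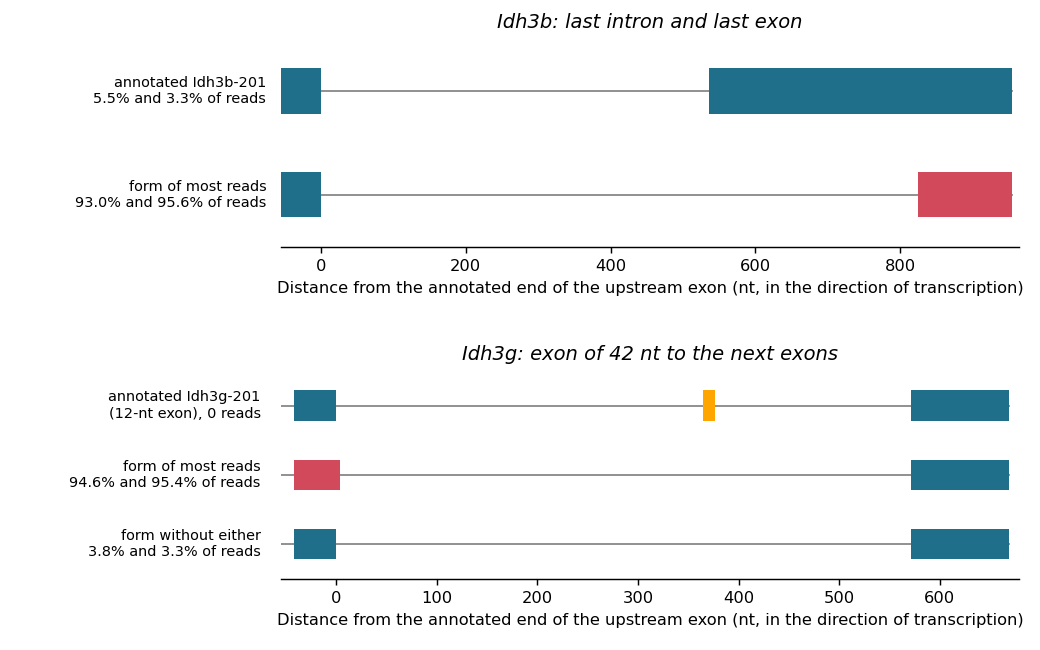
Exons (boxes) and introns (lines) at the 3′ end of Idh3b and around the 42-nt exon of Idh3g, drawn to scale by distance in nt from the annotated end of the upstream exon, with the share of spanning reads in replicate 1 and replicate 2. The last exon of Idh3b begins 289 nt further on in most reads, and in Idh3g the 12-nt exon of Idh3g-201 (orange) was in 0 reads. Over all genes with 1 coding transcript, 4 of 5 annotated internal exons of 15 nt or less were in 0 reads.

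Got2 (chr8:95864134-95888547, minus strand) was the remaining gene of the 29 with an unannotated intron in over 10% of spanning reads. The annotated last intron (chr8:95865252-95866820) was in 63.5% and 67.7%, and the same intron moved by 4 nt at both ends (chr8:95865248-95866816) in 35.9% (28.7 to 43.7) and 31.3% (22.2 to 41.5). Both are 1569 nt long. The last exon of Got2-201 begins with the 4 bases in capitals, which are the bases that the moved intron takes in:
Got2-201 junction (capitals at chr8:95865248-95865251): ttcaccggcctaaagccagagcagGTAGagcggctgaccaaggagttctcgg
The reads and the genome sequence at the other end of the intron were not examined, so the shift itself was not checked. Counting Got2-201 and its moved copy as 1 form, 70.4% and 70.1% of Got2 reads had this exon chain, against 38.2% and 44.4% for Got2-201 alone. Genomic reads at the 3′ end, 18 and 21 of them, made up a further 9.68% and 17.9%.

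Ogdh (chr11:6291633-6356642, plus strand), whose alternative exons code for calcium-sensing and other variants of the E1 protein, was read almost wholly in 1 internal form. The 103-nt exon was in 435 of 437 and 340 of 341 spanning reads, or 99.5% and 99.7%. The alternative 91-nt exon was in 0 and 1 reads, and the 45-nt exon in 4 and 6. The 3 exons are shown because, between the first and last exon, they separate Ogdh-201 from another annotated coding form. Other annotated forms differ at the first exon:
Ogdh exon of 103 nt (chr11:6316978-6317080): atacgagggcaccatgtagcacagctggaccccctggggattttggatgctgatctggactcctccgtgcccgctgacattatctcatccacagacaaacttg
Ogdh exon of 91 nt (chr11:6316765-6316855): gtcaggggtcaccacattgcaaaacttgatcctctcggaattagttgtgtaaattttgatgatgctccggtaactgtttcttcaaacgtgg
Ogdh exon of 45 nt (chr11:6324878-6324922): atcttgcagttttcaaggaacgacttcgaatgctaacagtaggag
Ogdh-201 held 55.3% and 56.9% of reads. Incomplete chains, which hold part of an annotated chain of exons, made up 26.2% and 27.8% of Ogdh reads and 23.6% and 22.6% of Dlst reads. Across the 29 genes the share of incomplete reads and the length of the main transcript had a Spearman rho of 0.38 (n = 29 genes of the same 2 libraries, a description). Reads of the last exon alone numbered 36 and 24 for Dlst, 39 and 30 for Cs, and 18 and 13 for Ogdh. At the start of the gene, 432 and 337 reads were spliced into the second exon of Ogdh-201, and 83.3% (79.5 to 86.7) and 83.4% (79.0 to 87.2) of them came from its own first exon.

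RefSeq promoter windows of the GRCm38.p6 build, 250 bases before to 50 bases after the start, were matched by symbol for 26 of the 29 genes. The SP1 motif GGGCGG, searched on both strands, was in a window of 17 of the 26, or 65.4%, against 38.2% of all genes. The TATA motif TATAAA was in 1 of 26, or 3.85%, against 15.7%. CCGGAAG of the ETS family was in 3 genes (11.5% against 9.93%), the NRF1 motif in Dld and Sucla2 (7.69% against 5.19%), TGACGTCA of CRE in 2 (7.69% against 2.03%), and TNAAGGTCA of the estrogen-related receptors in 0 (against 1.43%). These matches were not tested, and a match of letters is a description.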

How the data were processed

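The deposited values are counts: per the file headers and the authors' accompanying descriptions, raw long reads per transcript model on mm10 with GENCODE M21, listing models with 1 or more reads, without normalization. The annotation carries TALON attributes. Aligner and tool versions: not given in the sources used here. Pipeline document versions 3.1 (replicate 1) and 3.0 (replicate 2) are cited per the labels.

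Members and lists were chosen with earlier results of these data known, and the intron, reading-frame, short-exon, depth and length-class measures after seeing the data. All 29 members and each model with a mean share of 10% or more and 5 or more reads in each library were to be named, and other pathway genes at 100 CPM or more; Pdk3, Pdp2 and Ogdhl were added after their values were seen. An item that this rule takes is not reported here. Spike-in RNAs were left out of CPM. A gene entered the exact binomial test with 20 or more reads summed over the libraries. Transcript shares (mean 5% or more, 20 reads in each library) and exons (5% to 95% of 20 or more spanning reads) were called by Fisher's exact test at 10 points. Unannotated models were matched by intron chain. The tests were tested on simulated data. Python 3.11.15, numpy 2.4.6, scipy 1.17.1, pandas 2.3.3 and matplotlib 3.10.9 were used, and alternative library sizes came from R 4.3.3 with DESeq2 1.42.0 and edgeR 4.0.16. Transcript sequences came from GENCODE M21, and promoters from RefSeq.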

Additional observations from a re-analysis of the deposited data

How the results depend on the processing

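No paired analysis was possible because both libraries belong to 1 group. The 1 gene called between the libraries, Pcx, was also called with edgeR TMM and DESeq2 size factors, without mitochondrial genes in the library size, with read minima of 5 and none, with annotated transcripts alone, without the genomic class and with a null share per length bin. With a minimum of 100 reads, which Pcx does not reach, 0 of 24 genes were called, against 59 of 2666 over all genes. At any fold 12 of 29 were called, against 685 of 7516 over all genes tested, whatever their depth. The counts of 0 transcript and 0 exon calls did not move under any alternative run. These runs tested only 27 to 32 models and 1 or 2 exons of the 29 genes. With the main settings 37 of 8826 models and 3 of 1708 exons were called over all genes. Counts of 0 were therefore likely under each setting and say little about stability. The summed level of 11626 CPM was 9900.4 CPM in annotated transcripts alone and 16856 CPM without the 10 genes of most reads in the library size; without either replicate it ranged from 10463 to 12789 CPM. The annotated share of 85.0% was 92.6% as a median over genes. With annotated transcripts alone, the share of Idh3a became 97.9%, that of Idh3b 2.09%, that of Idh3g 0.0426%, that of Got2 22.4%, that of Ogdh 40.9% and that of Sucla2 92.2%. Over models with annotated introns only, Idh3a became 95.7%, Idh3b 2.78%, Idh3g 1.51% and Got2 31.8%. Of the 10 highest genes by CPM, 7 were among the 10 highest per kb, joined by Idh2, Pdhb and Suclg1, and 8 in annotated transcripts alone, joined by Fh1 and Mdh1. No condition could be compared, so no value here speaks of age, strain or treatment. Genes under 100 CPM rest on few reads in each library.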
